A study of Mus musculus with 8 samples.

Results

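Pyy and 8 genes of the embryonic foregut and pharyngeal endoderm, Foxa1, Foxa2, Epcam, Cdh1, Hhex, Pax9, Nkx2-1 and Pax8, were examined in Isl1 knockout embryos. The 9 genes were taken by symbol from 20701 gene symbols. Pyy was selected on its fall in CPM and in log2 fold change in this same comparison of the genotypes, so its values are given as a description, with a standard error and no test. The other 8 genes were chosen, with earlier results of these embryos in view, because they mark foregut, pharyngeal or epithelial cells, and the question was whether they fell together with Pyy in each embryo. RNA was sequenced from dissected pharyngeal mesoderm and hearts of C57BL/6 mouse embryos at E8.75 (6 somites), with 4 Isl1-/- embryos (knockout, numbered 1 to 4) and 4 wild-type embryos (also numbered 1 to 4). Each library held the RNA of 1 embryo, the labels name no treatment, and the part of Isl1 that the allele removes is not given in the sources used here. Libraries held 18916452 to 26153039 counted reads.

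The gut hormone gene Pyy encodes peptide YY, a member of the neuropeptide Y family that endocrine cells of the adult gut and pancreas secrete, and it is also known as a marker of early gut endoderm in the embryo. The foregut endoderm is the epithelial tube that lies beneath the forming heart and lines the pharynx, and it signals to the cardiac progenitors next to it. Isl1, a LIM-homeodomain transcription factor best known from those progenitors, is also made in pharyngeal endoderm. Foxa1 and Foxa2 are forkhead pioneer factors of endoderm, Epcam and Cdh1 are adhesion proteins of epithelia in general, Hhex is a homeodomain factor of anterior endoderm and endothelium, Pax9 marks the pharyngeal pouches, and Nkx2-1 and Pax8 are transcription factors of the thyroid bud, Nkx2-1 also of the ventral forebrain and Pax8 also of kidney and ear.

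The positions of the genes on mm9 were as follows. Pyy (NM_001346771) lay at chr11:101967990-101969146 on the minus strand. Foxa1 (NM_008259) lay at chr12:58641618-58647108 and Foxa2 (NM_010446) at chr2:147868613-147872705, both on the minus strand. Epcam (NM_008532) lay at chr17:88035319-88050446 and Cdh1 (NM_009864) at chr8:109127251-109194146, both on the plus strand. Hhex (NM_008245) lay at chr19:37507377-37515218 on the plus strand. Pax9 (NM_011041, chr12:57792754-57813809, plus strand) and Nkx2-1 (NM_009385, chr12:57632922-57637895, minus strand) were on the same chromosome as Foxa1. Pax8 (NM_011040) lay at chr2:24276071-24331119 on the minus strand. Pax8 overlapped the opposite-strand gene Gm13415, and Pax9 overlapped Gm15524 and the end of Slc25a21. Reads of both strands were counted, so the reads of these overlapping genes could not be told apart.

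Promoter sequence is shown for Pyy and Hhex, the genes of the group whose values separated the genotypes completely. Each sequence covers the 250 bases before the transcription start in RefSeq on GRCm38.p6, read 5′ to 3′ on the strand of the gene. Capitals mark matches to 2 motifs searched on both strands, the CCAAT box (CCAAT, which reads ATTGG on the other strand) and a TATA-like box (TATAA). The Pyy window was chr11:102107833-102108082 on the minus strand, before 1 of the 2 starts listed. The Hhex window was chr19:37434591-37434840 on the plus strand.
Pyy: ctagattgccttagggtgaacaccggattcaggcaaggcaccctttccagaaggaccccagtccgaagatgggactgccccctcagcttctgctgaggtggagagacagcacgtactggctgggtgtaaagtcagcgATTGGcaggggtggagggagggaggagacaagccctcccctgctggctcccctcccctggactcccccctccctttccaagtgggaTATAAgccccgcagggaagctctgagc
Hhex: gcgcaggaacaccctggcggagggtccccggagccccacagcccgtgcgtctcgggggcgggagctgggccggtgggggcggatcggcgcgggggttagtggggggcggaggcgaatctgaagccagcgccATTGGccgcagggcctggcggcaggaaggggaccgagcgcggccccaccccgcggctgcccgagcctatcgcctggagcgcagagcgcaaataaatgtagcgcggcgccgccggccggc
The Pyy promoter held a TATA-like box that began 27 bases before the start and a CCAAT box that began 113 bases before it, with a GC content of 61.2%. The Hhex promoter held a CCAAT box that began 119 bases before the start and no TATA-like match, with a GC content of 76%.

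Windows that ran to 50 bases past the start, 300 bases in all, were listed for 8 of the 9 genes (Cdh1 was the exception) and for 27025 genes in all. The CCAAT box was found in Pyy, Hhex, Foxa1, Foxa2 and Pax8, and in 37.9% of all windows. TATAA was found in Pyy and Foxa1, and in 25.5% of all windows. The homeodomain core TAAT, which can overlap TATAA where the letters read TATAAT, was found in Foxa1, Foxa2 and Pax9, and in 58.3% of all windows. The forkhead motif TGTTTAC was found in Foxa1 and in 3.55% of all windows, and the GATA motif AGATAA in 0 of the 8 and in 11.4% of all windows. A match describes letters in a short window and was not tested as a binding site.

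Isl1 itself was examined first, because it checks the genotype labels. Its TMM-scaled read counts per 1000000 reads (CPM), listed from embryo 1 to embryo 4 here and below, were 9.72, 9.76, 26.9 and 23.3 (wild-type) against 2.32, 2.16, 1.78 and 2.40 (knockout). Every knockout embryo was below every wild-type embryo, in the direction of its label (log2 fold change -3.0, SE 0.36, edgeR FDR 0.0041). The labelled tissue was checked with marker lists. All 9 heart muscle genes were measured and summed to 3003 to 4454 CPM in the wild-type and 1607 to 2430 CPM in the knockout embryos, while 6 of 7 pharyngeal mesoderm genes passed the filter on low counts and the seventh, Msc, had 17 wild-type reads and 7 knockout reads. Other tissue was present in both groups. The 14 visceral and yolk sac endoderm genes summed to 555 to 4882 CPM in the wild-type and 440 to 7078 CPM in the knockout embryos, and the 8 primitive erythroid genes to 370 to 2367 and 1258 to 3129 CPM. Knockout embryo 2 was labelled as total RNA, unlike the other libraries, which were labelled as polyA RNA, and reads of Y-linked genes were found in 1 of 4 wild-type and 3 of 4 knockout embryos.

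Wild-type embryo 3 stood apart in this group of genes. Of the 4 wild-type embryos it was the highest for Pyy and for 5 of the 8 other genes (Foxa1, Foxa2, Cdh1, Hhex and Pax9), as it was for 35.2% of all genes tested. It also held the lowest primitive erythroid sum (370 CPM) and the lowest heart muscle sum (3003 CPM) of the wild-type embryos. Values without this embryo are given beside the results below that moved most when it was left out, and its omission from the correlations was chosen after seeing the data.

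Pyy was nearly absent from the knockout embryos. Pyy was measured at 2.75, 2.70, 5.86 and 2.62 CPM (wild-type) against 0.0773, 0.207, 0.418 and 0.294 CPM (knockout). These values stood on 66, 61, 139 and 69 reads in the wild-type and on 2, 5, 8 and 6 reads in the knockout embryos. All knockout embryos were below all wild-type embryos, and wild-type embryo 3 had the highest level of all. The knockout mean of 0.249 ± 0.144 CPM (SD, n = 4) was 7.15% of the wild-type mean of 3.48 ± 1.58 CPM (SD, n = 4; log2 fold change -3.83, SE 0.45). Without wild-type embryo 3 the log2 fold change was -3.46.

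The depth allowed the knockout values to be bounded. The exact 95% Poisson interval of the 2 reads in knockout embryo 1 ran from 0.242 to 7.22 reads, and that of the 8 reads in knockout embryo 3 from 3.45 to 15.8 reads, equal to 0.181 to 0.824 CPM. The lowest wild-type interval, that of embryo 4, began at 2.04 CPM. Because Pyy was chosen for its fall in these counts, the intervals describe the depth and are no test between the genotypes. These intervals cover counting error only, since the reads carried no molecular identifiers. In bulk tissue, fewer Pyy-expressing cells and less Pyy RNA per cell could not be told apart.

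**Figure D1:**
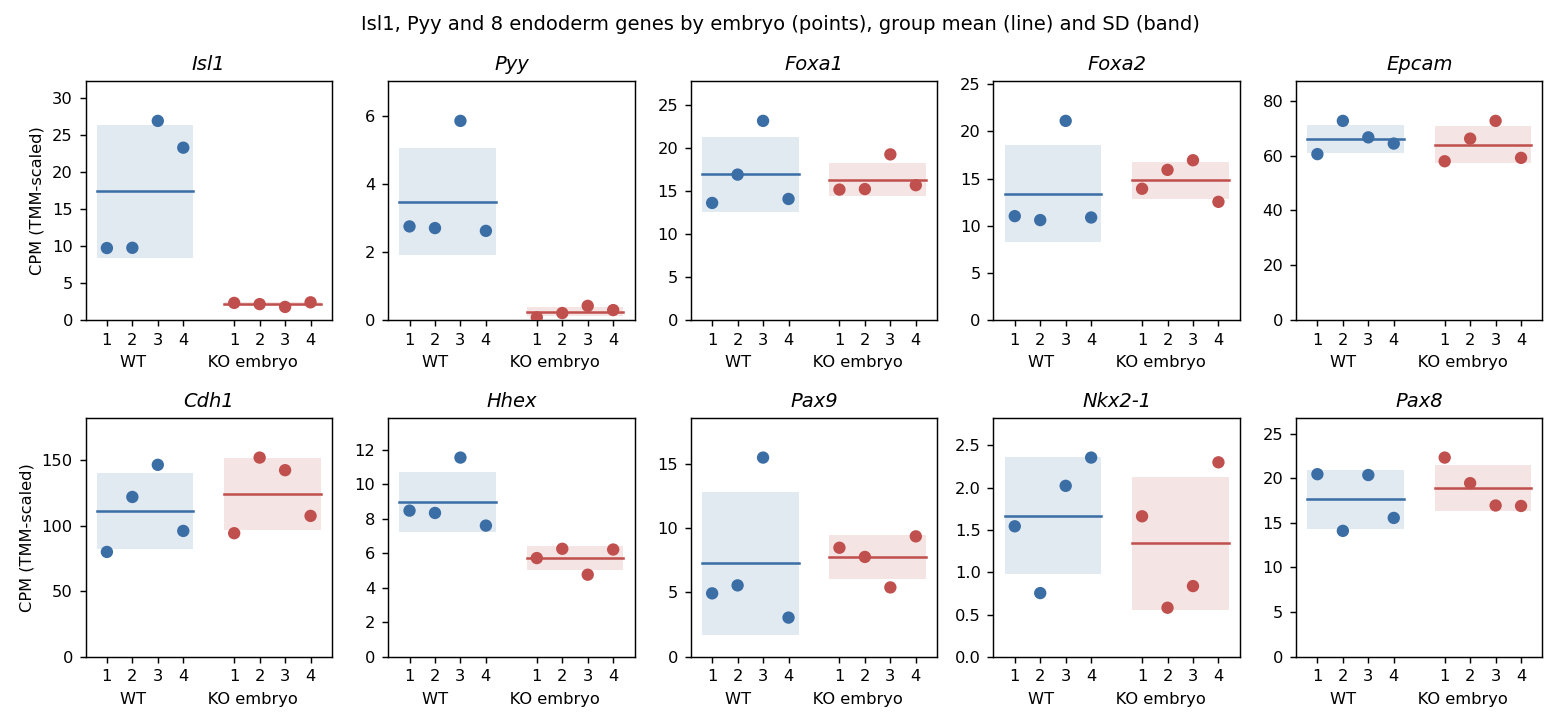
TMM-scaled CPM of Isl1, Pyy and the 8 other genes in each of 4 wild-type (WT, blue) and 4 Isl1 knockout (KO, red) embryos; lines are group means, bands 1 SD, and each panel has its own axis from 0. Pyy and Hhex are lower in every knockout than in every wild-type embryo, while the groups overlap for the other 7 endoderm genes.

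The fall of Pyy was not shared by the other 8 genes as a group. Of the 8, 4 were lower and 4 higher in the knockout, with a median log2 fold change of 0.03, beside 0.01 for the 14075 genes tested. Of all genes tested, 6868 were lower and 7207 higher. In the edgeR quasi-likelihood fit over all genes, 0 of the 8 passed an FDR of 0.05, against 0.973% of all genes (0.867% lower and 0.107% higher). The count at an unadjusted p-value under 0.05 was 1 lower, Hhex, and 0 higher, against 10.1% and 7.37% of all genes. The Wald test of DESeq2 also called Hhex alone of the 8, beside 699 of the 14075 genes (463 lower), more than the 137 by edgeR. Without wild-type embryo 3, 3 were lower and 5 higher with a median of 0.16, and 0 of the 8 passed by edgeR, beside 490 of all genes. Without wild-type embryo 4 the split was 5 lower and 3 higher, with a median of -0.08.

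Neither of the pioneer factors Foxa1 and Foxa2 passed the test between genotypes. Foxa1 was measured at 13.6, 16.9, 23.1 and 14.1 CPM (wild-type) against 15.2, 15.2, 19.2 and 15.7 CPM (knockout). The groups overlapped, with wild-type embryo 3 highest and knockout embryo 3 next (log2 fold change -0.05, SE 0.17, 95% interval -0.44 to 0.33, edgeR FDR 0.899). Foxa2 was measured at 11.02, 10.6, 21.1 and 10.9 CPM (wild-type) against 13.9, 15.9, 16.9 and 12.5 CPM (knockout). All 4 knockout embryos lay above 3 of the wild-type embryos and below wild-type embryo 3 (log2 fold change 0.15, SE 0.23, 95% interval -0.36 to 0.65, edgeR FDR 0.780). Without wild-type embryo 3 the estimates were 0.13 for Foxa1 (edgeR FDR 0.548) and 0.45 for Foxa2 (edgeR FDR 0.0781).

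The epithelial adhesion genes were the most abundant of the 9 per length, and neither passed the test between genotypes. Epcam was measured at 60.5, 72.7, 66.7 and 64.4 CPM (wild-type) against 57.9, 66.2, 72.7 and 59.2 CPM (knockout). The groups overlapped over nearly their whole ranges (log2 fold change -0.05, SE 0.09, 95% interval -0.25 to 0.16, edgeR FDR 0.825), the narrowest interval of the 9 genes. Cdh1, which encodes E-cadherin, was measured at 80.0, 122, 147 and 96.1 CPM (wild-type) against 94.3, 152, 142 and 108 CPM (knockout). Here, too, the groups overlapped, and embryos 2 and 3 of both genotypes were the 4 highest (log2 fold change 0.16, SE 0.20, 95% interval -0.29 to 0.61, edgeR FDR 0.724). Without wild-type embryo 3, the highest of its group, the estimate for Cdh1 was 0.32 (edgeR FDR 0.329), and without wild-type embryo 1 it was 0.03.

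Hhex was the gene other than Pyy that was lower in every knockout embryo. Hhex was measured at 8.47, 8.34, 11.5 and 7.60 CPM (wild-type) against 5.72, 6.26, 4.76 and 6.22 CPM (knockout). The groups did not overlap, which held for 1 of the 8 genes in this direction and for 6.33% of all genes, while 0 of the 8 were higher in every knockout embryo, against 3.96% of all genes. The knockout mean of 5.74 ± 0.698 CPM (SD, n = 4) was 63.8% of the wild-type mean of 8.99 ± 1.75 CPM (SD, n = 4). Hhex had a log2 fold change of -0.65 (SE 0.16, 95% interval -1.01 to -0.28), with an edgeR FDR of 0.0930, which missed the threshold. These were -0.50 and 0.0776 without wild-type embryo 3. By the DESeq2 Wald test Hhex had an adjusted p of 0.0190, and over all alternatives the FDR ran from 0.0190 to 0.313, the highest with the presence of Y-linked reads as a term (log2 fold change -0.52). Hhex is also made in endothelium and in heart-forming tissue, and the share of each source was not measured here.

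The pouch and thyroid bud genes gave no shift beyond the spread between embryos. Pax9 was measured at 4.92, 5.54, 15.5 and 3.04 CPM (wild-type) against 8.47, 7.75, 5.39 and 9.35 CPM (knockout). Wild-type embryo 3 was above all other embryos and the other wild-type embryos were among the lowest (log2 fold change 0.10, SE 0.43, 95% interval -0.87 to 1.06, edgeR FDR 0.925), and the estimate was 0.79 without that embryo (edgeR FDR 0.105). Nkx2-1 was measured at 1.54, 0.754, 2.02 and 2.36 CPM (wild-type) against 1.66, 0.580, 0.837 and 2.30 CPM (knockout). Both groups covered nearly the same range, on 14 to 62 reads per library, and the interval was wide (log2 fold change -0.32, SE 0.46, 95% interval -1.34 to 0.70, edgeR FDR 0.761). Pax8 was measured at 20.4, 14.1, 20.4 and 15.5 CPM (wild-type) against 22.3, 19.4, 16.9 and 16.9 CPM (knockout). The groups overlapped again (log2 fold change 0.10, SE 0.15, 95% interval -0.23 to 0.44, edgeR FDR 0.765).

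**Figure D2:**
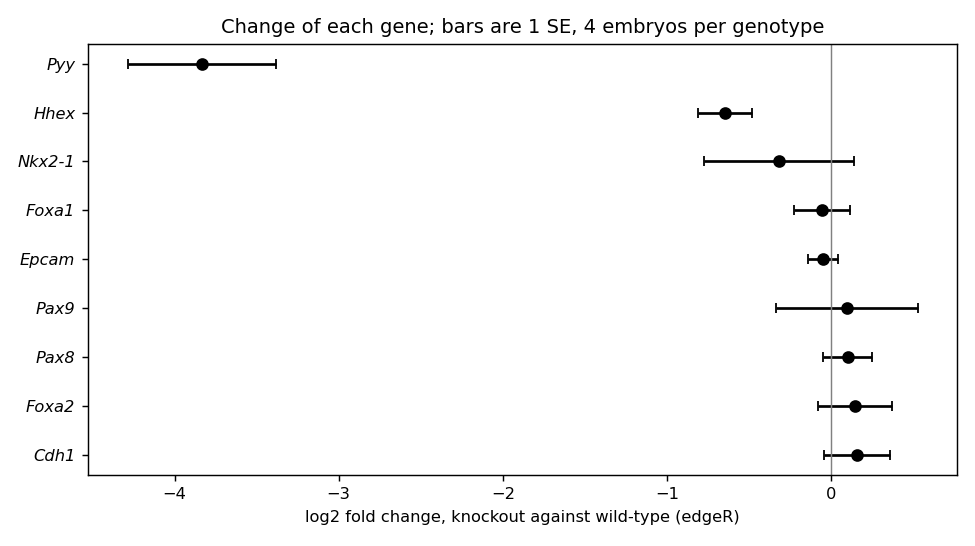
The log2 fold change of knockout against wild-type embryos (x axis, edgeR, 4 embryos per genotype) for Pyy and the 8 other genes, with bars of 1 SE. Pyy lies at -3.83, Hhex at -0.65, and the other 7 genes between -0.32 and 0.16.

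Levels were compared between genes per length, on the RPKM scale. In the wild-type embryos the order of the mean levels was Epcam (18.7 ± 1.34 RPKM), Cdh1 (14.6 ± 3.85), Pax8 (4.0 ± 0.743), Foxa2 (3.67 ± 1.43), Pyy (3.65 ± 1.68), Foxa1 (3.09 ± 0.808), Hhex (2.96 ± 0.582), Pax9 (0.972 ± 0.756) and Nkx2-1 (0.345 ± 0.149; SD, n = 4 each). The RPKM values of neighbours in this order overlapped between embryos, except between Cdh1 and Pax8 and between Hhex and Pax9. Pyy thus stood with Foxa1, Foxa2, Pax8 and Hhex in the wild-type tissue. In the knockout tissue Pyy was the lowest of the 9, at 0.271 ± 0.156 RPKM, next to Nkx2-1 at 0.289 ± 0.171 RPKM.

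Pyy was then set against each endoderm gene within the same embryo, as a way of asking whether it fell relative to the endoderm that each dissection held. There were 25.0, 25.5, 27.7 and 24.1 Pyy reads per 100 Foxa2 reads (wild-type) against 0.556, 1.30, 2.47 and 2.34 (knockout). The wild-type embryos were close to each other on this measure, with the highest at 1.15 times the lowest, and embryo 3 no longer stood apart as it did for Pyy and Foxa2 alone. Per 100 Foxa1 reads, Pyy had 16.0 to 25.3 reads in the wild-type and 0.510 to 2.17 in the knockout embryos. Per 100 Epcam reads it had 3.72 to 8.79 and 0.133 to 0.576, and per 100 Hhex reads 32.4 to 50.7 and 1.35 to 8.79. With Cdh1, Pax9, Nkx2-1 or Pax8 as the reference the knockout embryos were also below the wild-type embryos, so that all 8 ratios separated the genotypes. Because Pyy was chosen for its fall, this separation is a description. The spread of the wild-type ratios was wider for the other references than for Foxa2, from 1.56 times for Hhex to 3.22 times for Nkx2-1.

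**Figure D3:**
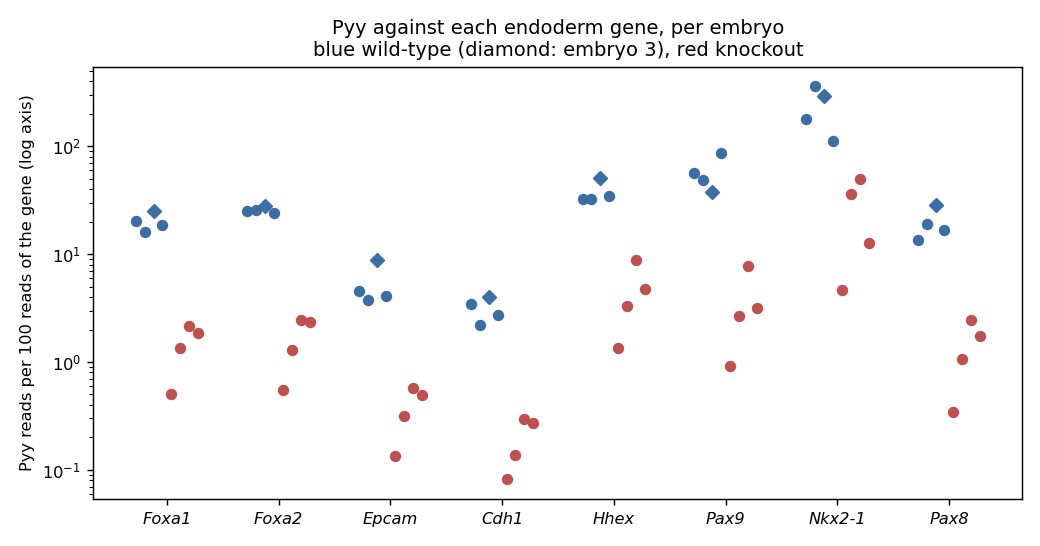
Pyy reads per 100 reads of each endoderm gene in the same embryo (y axis, log scale) for 4 wild-type (blue, embryo 3 as a diamond) and 4 knockout (red) embryos. For each of the 8 genes all knockout points lie below all wild-type points, and the wild-type points are closest together for Foxa2, at 24.1 to 27.7.

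Hhex was set against Foxa2 and Epcam in the same way, as a description made after its values were seen. There were 76.9, 78.7, 54.7 and 69.9 Hhex reads per 100 Foxa2 reads (wild-type) against 41.1, 39.3, 28.1 and 49.6 (knockout). The groups did not overlap on this measure. Per 100 Epcam reads, Hhex had 11.5 to 17.3 reads in the wild-type and 6.55 to 10.5 in the knockout embryos, again without overlap. This did not hold for every reference. Wild-type embryo 3 had 274 Hhex and 367 Pax9 reads, and knockout embryo 3 had 91 and 103. Relative to Pax9, Hhex was thus higher in that knockout embryo than in that wild-type embryo, and the groups overlapped.

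How the genes varied among embryos of 1 genotype was described by correlations over the 8 embryos after each value was centred on its genotype mean. The points share their libraries. On this measure Pyy varied with Foxa1 (r = 0.72), Cdh1 (0.66), Foxa2 (0.62) and Epcam (0.50), less with Pax9 (0.34) and Hhex (0.26), and gave -0.04 with Nkx2-1 and -0.20 with Pax8. Over the 7 embryos other than wild-type embryo 3, centred again, the values were 0.56 for Foxa1, 0.49 for Cdh1, 0.34 for Foxa2 and 0.57 for Epcam. Those for Pax9 and Hhex turned to -0.35 and -0.36, and Pax8 gave -0.61. With genotype left in, Pyy gave r = 0.85 with Hhex, which was also lower in all knockout embryos, and -0.10 with Foxa2 (n = 8), or 0.80 and -0.77 without wild-type embryo 3.

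Genes with a profile like that of Pyy were sought among all genes tested, by Pearson correlation of log2 CPM over the 8 embryos. The 5 most similar were Gata5 (r = 0.977), Kif26b (0.971), Apela (0.971), Syne1 (0.970) and Pdlim5 (0.968). Gata5 encodes a zinc finger factor of heart and endoderm, and Apela a secreted peptide that acts through the apelin receptor. Because they were chosen for their likeness to Pyy with genotype left in, a lower level in the knockout follows from the choice and is a description. The 5 genes had log2 fold changes of -1.03 for Gata5, -0.48 for Kif26b, -1.19 for Apela, -0.78 for Syne1 and -0.44 for Pdlim5. After centring within genotype, the 5 most similar were other genes, Ripk1, Zfp991, Tmf1, Mpzl1 and Gcc2 (r = 0.955 to 0.926), and their log2 fold changes lay between -0.30 and 0.05.

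The mean profile of the 8 other endoderm genes had other neighbours. Spata2 (r = 0.983), Sall1 (0.965), Sall4 (0.960), Arid3b (0.954) and Cadm3 (0.950) were the most similar over the 8 embryos. Without wild-type embryo 3 the correlations were 0.868, 0.749, 0.668, 0.778 and 0.561, so the likeness rested in part on that embryo. Their log2 fold changes lay between -0.14 and -0.03. After centring within genotype, Lrp11, Rela, Spata2, Kcna2 and Srgap1 were the most similar (r = 0.992 to 0.976).

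Other cell types that carry these genes varied between the dissections. Foxa1, Foxa2, Epcam and Cdh1 are also made by visceral and yolk sac endoderm, whose 14 marker genes were detected in every embryo. Their summed CPM was 1548, 2820, 4882 and 555 (wild-type) against 440, 7078, 4968 and 739 (knockout). The sums overlapped, all 14 genes had a log2 fold change above 0, and 0 of the 14 passed an edgeR FDR of 0.05 or an unadjusted p-value under 0.05 (median log2 fold change 0.43). The 14 genes share their libraries, so their common direction is not 14 separate results. Over the 8 embryos the log2 sum varied with Cdh1 (r = 0.82) and Epcam (0.73), and less with Foxa1 and Foxa2 (0.58 each), Pyy (0.20) and Hhex (0.14). It varied inversely with Nkx2-1 (r = -0.70). When wild-type embryo 3 was left out, Cdh1 gave 0.79, Epcam 0.74, Foxa1 0.51, Foxa2 0.50, Pyy 0.02, Hhex -0.18 and Nkx2-1 -0.92. With this level as a term in the fit, the log2 fold change was -3.86 for Pyy and -0.64 for Hhex (edgeR FDR 0.0645), and 0 of the 8 genes passed.

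**Figure D4:**
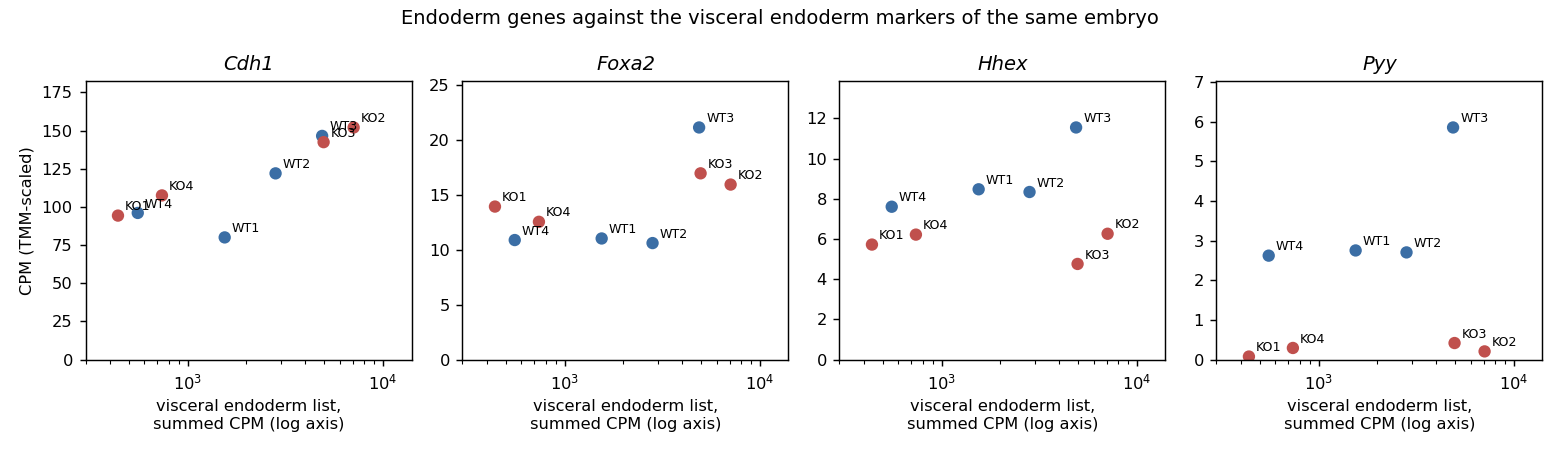
CPM of Cdh1, Foxa2, Hhex and Pyy (y axes, from 0) against the summed CPM of 14 visceral and yolk sac endoderm genes in the same embryo (x axis, log scale), with wild-type embryos in blue and knockout embryos in red. The 3 embryos with the highest sums have the 3 highest Cdh1 values, while the knockout points of Hhex and Pyy lie below the wild-type points along the whole axis.

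Notochord, which also expresses Foxa2 and Shh, gave summed CPM of 30.4, 31.6, 62.3 and 33.9 (wild-type) against 42.7, 44.1, 46.5 and 41.0 (knockout) over its 6 marker genes. Wild-type embryo 3 was the highest, as it was for Foxa2. Of the 5 genes that passed the filter 4 were higher and 1 was lower, and 0 passed the FDR or an unadjusted p-value under 0.05, while T passed the FDR without wild-type embryo 3 (log2 fold change 0.96 ± 0.20 SE, edgeR FDR = 0.038). The fit without that embryo passed 490 genes, against 137 with all embryos. With Foxa2 left out of the sum, the notochord level varied with Foxa2 (r = 0.92), Pax9 (0.80) and Foxa1 (0.78) over the 8 embryos, and gave -0.14 with Pyy. These were 0.84, 0.59, 0.48 and -0.90 without wild-type embryo 3, with genotype left in. Surface ectoderm, another epithelium with Epcam and Cdh1, had 8 of 10 markers past the filter, all 8 with a log2 fold change above 0 and 0 past the FDR or an unadjusted p-value under 0.05, and its sums ran from 71.0 to 96.0 CPM in the wild-type and from 77.7 to 103 CPM in the knockout embryos. Heart muscle genes fell together with Pyy across genotypes, with 8 of 9 lower past the FDR (median log2 fold change -0.91). With genotype left in, the log2 heart muscle sum gave r = 0.82 with Pyy and 0.58 with Hhex over the 8 embryos. These were 0.92 and 0.75 without wild-type embryo 3. Within the wild-type group, embryo 3 had the highest Pyy and the lowest heart muscle sum. The part of notochord, surface ectoderm, heart muscle and blood cells in the endoderm values was not tested.

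The receptors and relatives of peptide YY were examined next. Of 8 genes of the neuropeptide Y family, its receptors and Dpp4, the protease that trims peptide YY, 2 passed the filter, and 0 of them passed the FDR or an unadjusted p-value under 0.05. The receptor gene Npy1r had 11 to 20 reads in the wild-type and 13 to 27 reads in the knockout embryos (log2 fold change 0.47, edgeR FDR 0.489). Dpp4 was higher in embryos 2 and 3 of both genotypes, at 19.3 to 66.2 CPM in the wild-type and 19.8 to 74.9 CPM in the knockout embryos (log2 fold change 0.11, edgeR FDR 0.925). The visceral and yolk sac endoderm sums were also higher in those embryos, and the part of that tissue in Dpp4 was not tested. Npy5r had 32 wild-type reads and 38 knockout reads, and Ppy, the neighbouring relative that encodes pancreatic polypeptide, had 6 and 4. Of the 3 peptide genes Pyy, Npy and Ppy, Npy had 5, 2, 0 and 0 reads in the wild-type embryos and 0 knockout reads, so the groups overlapped. A change of the rarer relatives was not detectable at this depth.

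Genes around Pyy on chromosome 11 were read to see whether a stretch of the chromosome moved. Ppy lay 5357 bases from Pyy on mm9 and was too weakly expressed to be tested. Mpp2, 18161 bases away, had a log2 fold change of 0.11 (edgeR FDR 0.683), and Tmem101, 44714 bases away on the other side, of -0.04 (edgeR FDR 0.845). Mpp3 was at 0.38 (edgeR FDR 0.275) and Lsm12 at -0.12 (edgeR FDR 0.450), and 0 of the 8 neighbours tested passed the FDR by edgeR or DESeq2, with 1, Mpp3, at an unadjusted p-value under 0.05.

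The wider endoderm programme was covered by lists of genes other than the 9. In the gut tube list, which holds regulators and early markers of the tube, 10 of 12 genes were tested, 3 were lower and 7 higher, and 0 passed the FDR (median log2 fold change 0.05). The median was 0.28 without wild-type embryo 3 and -0.08 without wild-type embryo 4, so its direction rested on single embryos. Only Trh, which encodes the precursor of thyrotropin-releasing hormone and marks early endoderm, had an unadjusted p-value under 0.05. Trh was measured at 17.7, 16.0, 15.1 and 11.2 CPM (wild-type) against 12.1, 10.6, 10.1 and 8.27 CPM (knockout). The groups overlapped through wild-type embryo 4 (log2 fold change -0.55, SE 0.16, edgeR FDR 0.142), and the Wald test of DESeq2 gave an adjusted p of 0.0479. Sox2 (log2 fold change 0.02), Otx2 (-0.07) and Shh (0.08) were the other genes of this list with the highest levels per length, with edgeR FDRs of 0.957, 0.844 and 0.845. Sox2 is also 1 of the 6 neural tube markers. Their sums ran from 253 to 288 CPM in the wild-type and from 252 to 334 CPM in the knockout embryos. The part of neural tissue in the values of the gut tube list was not tested.

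In the pharyngeal pouch and arch list, 4 of 11 genes were lower and 7 higher, with a median log2 fold change of 0.12, and 1 passed the FDR. The median was 0.28 without wild-type embryo 3 and 0.05 without wild-type embryo 2. That gene was Nkx2-6, a homeobox gene of pharyngeal endoderm that is also made in cardiac cells. Nkx2-6 was measured at 4.26, 5.32, 10.2 and 8.14 CPM (wild-type) against 1.58, 1.70, 1.31 and 0.832 CPM (knockout). All knockout embryos were below all wild-type embryos (log2 fold change -2.35, SE 0.32, edgeR FDR 0.00727). Tbx1, the T-box factor of pharyngeal endoderm and mesoderm, was at 9.01, 7.32, 25.5 and 9.43 CPM (wild-type) against 27.1, 24.6, 14.2 and 35.0 CPM (knockout). Again wild-type embryo 3 stood apart from its group, so that Tbx1 had a log2 fold change of 0.98 (SE 0.40, edgeR FDR 0.248) with it and of 1.56 (edgeR FDR 0.0216) without it. In the fit without wild-type embryo 3, 490 genes passed the FDR (106 higher), against 137 (15 higher) with all embryos. Irx2 (log2 fold change 0.12) and Eya1 (0.25) had edgeR FDRs of 0.517 and 0.454.

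The thyroid list was weakly expressed, with 3 of 6 genes tested, 2 lower and 1 higher, 0 past the FDR, 1 in each direction at an unadjusted p-value under 0.05 (Tg and Tshr) and a median log2 fold change of -0.66. By limma on log2(RPKM + 1), a scale that understates changes of weakly expressed genes, the median was -0.05. Foxe1, a forkhead factor of the thyroid bud, was below the filter at 11, 13, 6 and 9 reads (wild-type) against 5, 6, 1 and 4 reads (knockout). On reads the groups met at 6, while on CPM all knockout embryos were lower, the nearest values being 0.253 CPM (wild-type embryo 3) and 0.249 CPM (knockout embryo 2). A fit without the filter gave a log2 fold change of -1.16 (SE 0.48, edgeR FDR 0.304). Tg, the thyroglobulin gene, had a log2 fold change of -0.76 (edgeR FDR 0.237), the iodide transporter gene Slc5a5 of -0.66 (edgeR FDR 0.327) and the hormone receptor gene Tshr of 1.02 (edgeR FDR 0.127). Nkx2-1 and Pax8 overlapped between genotypes, and a common direction of the thyroid genes was not tested.

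Genes of later endoderm organs were mostly at low levels. Of 18 genes of pancreas, enteroendocrine cells and liver bud, 8 were tested, 2 lower and 6 higher, with 0 past the FDR or an unadjusted p-value under 0.05 and a median log2 fold change of 0.03, which ran from -0.05 (without knockout embryo 3) to 0.20 (without wild-type embryo 2) when 1 embryo was left out. The hormone genes Gcg, Ins1, Ins2 and Sst and the islet regulator Pax4 had 0 to 6 reads summed over a group. These are hormones and a regulator that accompany Pyy in adult islets or gut. Ghrl, which encodes ghrelin, was lower in all knockout embryos on CPM, at 0.548 to 1.02 CPM in the wild-type and 0.471 to 0.538 CPM in the knockout embryos, on 13 to 23 and 9 to 13 reads, and did not pass the test (log2 fold change -0.59, edgeR FDR 0.308). Nkx6-1 was at 6.51, 4.12, 11.6 and 5.4 CPM (wild-type) against 11.4, 9.66, 12.2 and 8.22 CPM (knockout) (log2 fold change 0.58, edgeR FDR 0.329), and without wild-type embryo 3 at 0.95 (edgeR FDR 0.0380). That fit passed 490 genes, against 137 with all embryos. Pax6 (log2 fold change 0.03, edgeR FDR 0.941) and Hnf4a (0.30, edgeR FDR 0.869) were also among the genes of the list with the highest levels, and Pax6 and Nkx6-1 are also neural tube genes. Hnf4a was at 17.4, 29.0, 52.0 and 6.12 CPM (wild-type) against 5.45, 65.8, 49.0 and 8.76 CPM (knockout). Within each genotype these values had the same order as the visceral and yolk sac endoderm sums. The part of that tissue in Hnf4a was not tested.

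The epithelial list, made of keratins, claudins, desmosome genes and their regulators, held 25 genes, and all 25 were tested. Of these 5 were lower and 20 higher, 0 passed the FDR, 1 in each direction had an unadjusted p-value under 0.05 (Dsp lower at -0.27, St14 higher at 0.36), and the list had a median log2 fold change of 0.10, or 0.01 without knockout embryo 2 and 0.24 without wild-type embryo 2. The keratin genes Krt18 (log2 fold change 0.06, edgeR FDR 0.893) and Krt8 (0.06, edgeR FDR 0.911), the claudin gene Cldn6 (0.10, edgeR FDR 0.836) and Lsr (-0.12, edgeR FDR 0.748) had the highest levels. In the lists from gut tube to epithelium and that of the neuropeptide Y family, 6 lists in all, 59 of 80 genes were tested. Of these 16 were lower and 43 higher, beside 6868 and 7207 of all genes tested. Genes of a list share their libraries, so these directions are not separate results. By edgeR 1 passed the FDR (Nkx2-6), beside 0.973% of all genes. For the lists given here with 0 genes past the FDR, DESeq2 and limma called 0 as well, apart from Trh by DESeq2. Of all genes, DESeq2 called 699 and limma 119.

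**Figure D5:**
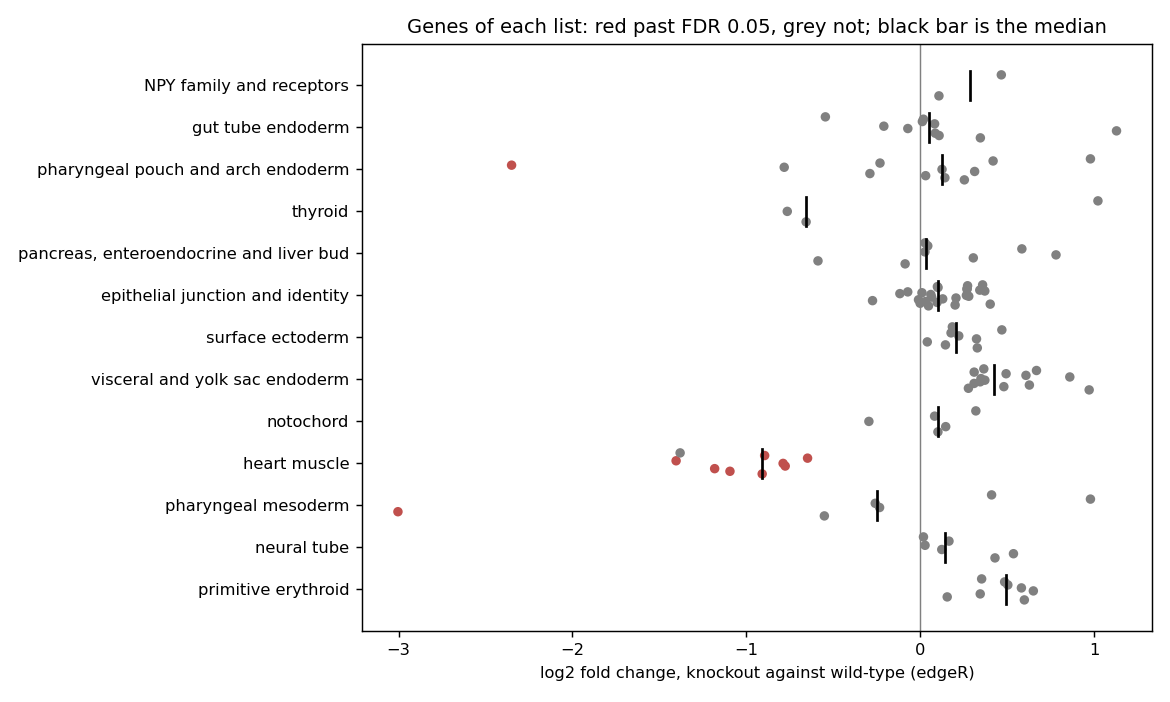
The log2 fold change of knockout against wild-type embryos (x axis, edgeR) for each tested gene. Points are red where the FDR is under 0.05 and grey where it is not. The lists are 6 of the neuropeptide Y family, endoderm and epithelia and 7 of other cell types, with a black bar at the median. In the 6 lists of the neuropeptide Y family, endoderm and epithelia Nkx2-6 at -2.35 is the red point, while 8 of 9 heart muscle genes are red and lower.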

How the data were processed

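RNA of 4 Isl1 knockout and 4 wild-type embryos was analysed, with genotypes and embryo numbers taken from the sample titles. The authors mapped reads to mm9 with STAR (introns of 20 to 500000 bases) and deposited raw read counts over the exons of RefSeq transcripts from HOMER, with reads of both strands counted. RPKM values were deposited as made by the authors with edgeR, per kilobase of transcript and per 1000000 counted reads. The length column, the baseMean signal, the log2 fold change, the score columns (its standard error and the Wald statistic) and the p-value columns were deposited by the authors from DESeq2 or HOMER; those of the authors' own comparison were not used. Versions of these tools are not given in the sources used here, nor is the treatment of reads shared by near-identical copies.

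From 31507 transcript entries, the entry with the highest summed count was kept for each of 20701 symbols (Pyy had 2 entries and Foxa2 had 3). Counts were filtered with filterByExpr, scaled by TMM and fitted by edgeR's quasi-likelihood test (edgeR 4.0.16, R 4.3.3) with genotype as the single term, on 14075 genes. Tests were two-sided, and FDRs are Benjamini-Hochberg values over all genes fitted, never over a list. Log2 fold changes are knockout over wild-type, and their SE was the size of the estimate divided by the square root of F. Alternatives used DESeq2 1.42.0, limma 3.58.1 on log2(RPKM + 1), other scalings and filters, added terms and 8 fits without 1 embryo each. The fit was tested on simulated data.

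Correlations used log2 CPM with a prior count of 1. Promoters came from RefSeq and gene positions from GENCODE vM1. Named genes were Isl1, the 9 genes, list genes past the FDR, the 4 of each list with the highest mean RPKM, and the 5 most similar profiles. Some genes under this rule are not reported here. Trh, Foxe1, Tg, Slc5a5 and Tshr fell under that rule, while Mpp2, Tmem101, Mpp3, Lsm12, Ghrl, Dsp, St14, the hormone genes at low reads, the markers of other cell types and Npy were named after their values were seen. The 9 genes and all lists were chosen with earlier results of these data known. Each library was 1 embryo, and litters are not given in the sources used here.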

Additional observations from a re-analysis of the deposited data

Results flagged for a closer look

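In groups of 4 embryos, the highest or lowest value was compared with its nearest neighbour, and a gap whose share of the whole range was above the 95% critical value of Dixon was marked. Of 20 such groups, for Isl1, Pyy and the 8 other genes in each genotype, 3 were marked, where chance marks about 1 in 20. Pyy at 5.86 CPM and Foxa2 at 21.1 CPM in wild-type embryo 3 lay far above the other wild-type embryos. Foxa1 at 19.2 CPM in knockout embryo 3 lay far above the other knockout embryos. The 2 marked values of wild-type embryo 3 come from 1 library and are not separate events.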

How the results depend on the processing

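Of 14075 genes, 137 passed an edgeR FDR of 0.05 (122 lower, 15 higher). With the embryo number as a replicate block 76 passed (72 lower, 4 higher), by the DESeq2 Wald test 699 (463 lower, 236 higher), and 315 with the visceral endoderm level as a term (230 lower, 85 higher), an alternative chosen after seeing the data. Leaving out 1 embryo gave 70 to 490, the highest without wild-type embryo 3 and the others that moved it over 1.5 times being wild-type embryos 1 (73), 2 (85) and 4 (85) and knockout embryos 1 (81) and 4 (70). The genes lower ran from 67 to 384 and those higher from 3 to 106 in these fits, and 5 were higher with Y-linked reads as a term. Of the 8 genes other than Pyy, 1 (Hhex) passed by DESeq2 and 0 in all other fits. Of the list genes, 1 passed, against 2 by DESeq2 (with Trh) and 1 to 3 when 1 embryo was left out (3 without wild-type embryo 3, with Tbx1 and Nkx6-1). The log2 fold change of Pyy was -1.82 by limma on log2(RPKM + 1), a scale that understates changes of low values, -3.81 with the block and -4.18 to -3.46 when 1 embryo was left out. Estimates near 0 changed sign, and the cause was not tested: Foxa1 was at 0.0058 with Y-linked reads as a term, 0.018 by limma and -0.14 to 0.13 when 1 embryo was left out, Epcam at 0.0074 by limma and -0.11 to 0.0011, and Pax9 at -0.16 to 0.79. Same-numbered embryos correlated at 0.104, 0.218, 0.0906 and 0.497 in their deviations from the group means, not all above 0.1, so the numbers were not taken to pair embryos, and Hhex had an edgeR FDR of 0.214 with the block. A change in genes with few reads, such as Nkx2-1, was not detectable within the intervals given.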
